A study of Mus musculus with 48 samples.

Results

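The protein kinase C genes measured here are 8 rows of a striatal RNA-sequencing count table, Prkca, Prkcb, Prkcd, Prkce, Prkch, Prkci, Prkcq and Prkcz, out of 48795 genes. They were chosen by gene symbol as members of the Prkc family, and that list states no measured value. It was drawn up with earlier results of these data in view, so the calls below describe the genes and are no independent evidence. The table holds 48 libraries of striatum from C57BL/6 mice of 6 months, 24 female and 24 male, in 6 groups named by genotype. There are 7 wild-type libraries, 9 of Msh3+/- and 8 each of Msh3-/-, Q140, Q140 Msh3+/- and Q140 Msh3-/-. Q140 is labelled a heterozygous knock-in, an allele of the huntingtin gene Htt whose CAG repeat is expanded, used as a model of Huntington disease. The product of Msh3 takes part in mismatch repair and is known to promote lengthening of such repeats. The labels name no treatment. The series text gives 7 to 8 mice per group while 9 libraries carry the Msh3+/- label, and the kind of Msh3 lesion is not given in the sources used here.

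Protein kinase C enzymes are serine and threonine kinases that relay signals from receptors coupled to the G protein Gq. Those receptors activate phospholipase C, which splits a membrane lipid into diacylglycerol and inositol trisphosphate, the ligand that opens calcium channels of the endoplasmic reticulum. The conventional isoforms, encoded by Prkca and Prkcb, need both calcium and diacylglycerol. The calcium-independent isoforms, encoded by Prkcd, Prkce, Prkch and Prkcq, need diacylglycerol only, and the atypical isoforms, encoded by Prkci and Prkcz, need neither and work in complexes with Par3, Par6 or p62. In the striatum most neurons are medium spiny neurons, which receive glutamate and dopamine input and in which Gq signalling runs largely through metabotropic glutamate and muscarinic receptors.

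Start regions of 4 of the 5 isoforms that were lower in Q140 are shown first, because these genes share that direction. RefSeq promoter windows of 300 bases (build GRCm38.p6) existed for 6 of the 8 genes, 9 windows in all; Prkce and Prkch had none in that table. The windows were searched on both strands for 4 motifs: the GC box GGGCGG, the EGR core GCGTGGG, the cyclic AMP response element TGACGTCA and the E-box CACGTG. A match is a run of letters and does not show that a factor binds. Below, capitals mark those matches, and the Prkca, Prkci and Prkcz stretches stop at the first annotated exon base. They lie at chr7:122289025-122289054 (+, Prkcb), chr11:108343929-108344138 (-, Prkca), chr3:30995521-30995746 (+, Prkci) and chr4:155345773-155346039 (-, Prkcz).
Prkcb GC box with flanks: gctggcggctctGGGCGGggcctgggtttc
Prkca upstream stretch: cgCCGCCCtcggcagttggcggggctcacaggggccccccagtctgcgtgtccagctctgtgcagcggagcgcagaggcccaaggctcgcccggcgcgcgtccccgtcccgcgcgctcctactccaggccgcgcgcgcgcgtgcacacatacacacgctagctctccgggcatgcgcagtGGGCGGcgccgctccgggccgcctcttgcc
Prkci upstream stretch: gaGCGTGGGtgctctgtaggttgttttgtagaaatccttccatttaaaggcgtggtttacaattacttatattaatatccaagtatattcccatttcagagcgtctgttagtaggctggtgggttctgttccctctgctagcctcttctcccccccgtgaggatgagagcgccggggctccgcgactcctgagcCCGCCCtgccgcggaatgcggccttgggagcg
Prkcz internal stretch: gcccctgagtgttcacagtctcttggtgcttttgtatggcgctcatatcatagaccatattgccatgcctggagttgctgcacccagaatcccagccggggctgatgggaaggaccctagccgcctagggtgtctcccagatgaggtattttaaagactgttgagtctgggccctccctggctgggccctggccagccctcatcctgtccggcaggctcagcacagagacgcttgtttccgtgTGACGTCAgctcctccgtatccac

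Over the whole windows, Prkcb held 1 GC box and none of the other motifs, Prkca held 2 GC boxes and 1 EGR core, and Prkci held the same numbers. The Prkcb window falls wholly within an exon of the annotation, and the EGR core of Prkca lies in its exonic part. Of the 3 Prkcz windows, the most upstream had 3 GC boxes. The Prkcz stretch printed here belongs to a start inside the gene and holds the single TGACGTCA of the set. This internal start is the kind of site known as background to give the brain-specific short form PKM-zeta, which gene-level counts cannot separate from full-length Prkcz. Prkcq, which did not fall with the others, also had 1 GC box, and the upstream Prkcd window had 4 GC boxes with an E-box overlapping 1 of them. Of all 32851 promoter windows of that length, 35.658% held a GC box, 5.038% the EGR core, 1.79% the response element and 7.15% the E-box. G and C made up 65.3% of the Prkcb window and 75.3% of the Prkca window, against a median of 52.7% over all windows. The windows of Prkcq and upstream Prkcd, genes that did not fall, held 73.0% and 69.3%, and the internal Prkcd window 51.3%. Among genes that fell, Prkci held 59.7% and the Prkcz windows ran from 58.3% to 71.0%. Genes that fell in Q140 and genes that did not both held GC boxes, and their G and C content overlapped.

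Library totals ran from 33673410 to 52808289 counts assigned to genes, and 19975 genes passed the filter on low counts, all 8 isoforms among them. The lowest isoform count in any library was 277, for Prkcd, so none of the values below rests on a handful of reads. Levels between groups are CPM (counts scaled by TMM-corrected library size), levels between genes are FPKM (also divided by gene length), and changes are log2 fold changes from edgeR's quasi-likelihood test. "Rose" and "fell" mark a Benjamini-Hochberg adjusted p under 0.05 over all genes tested. Msh3 itself read higher in the libraries labelled as its mutants, with a mean of 31.0 CPM in wild type, 77.4 in Msh3+/- and 119.7 in Msh3-/-, and a like order with Q140. The levels separated the labels without overlap but not in the direction of a loss, so every group below is a labelled group. The labels do not say how animals were bred or whether littermates were used. P-values of the main fit set group differences against the spread between libraries taken as independent, so relatedness is not accounted for. The animal codes share 27 stems, whose meaning is not given in the sources used here; with the stem as a random block in limma-voom (consensus correlation 0.136), the calls of Prkce and Prkcq in Q140 Msh3-/- against Q140 were lost (adjusted p = 0.05494 and 0.07728), and no other isoform call changed. Markers of striatum were present throughout, from a median of 506.3 to 2496 CPM for the 10 shared medium spiny neuron markers.

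Per unit of gene length, Prkcb was the most abundant isoform and Prkcq the least. In wild type the mean levels were 118.8 ± 5.64 FPKM for Prkcb, 58.1 ± 3.02 for Prkce, 37.3 ± 1.1 for Prkcz and 18.2 ± 1.02 for Prkca (SD, n = 7). The other four were Prkci at 16.0 ± 0.647 FPKM, Prkch at 11.6 ± 1.28, Prkcd at 1.94 ± 0.294 and Prkcq at 1.5 ± 0.188. Neighbours in this order stood apart in every wild-type library except for 2 steps. The ranges of Prkca and Prkci overlapped, although Prkca was the higher in 7 of 7 libraries, and those of Prkcd and Prkcq overlapped, with Prkcd higher in 6 of 7. The means kept this order in all 6 groups. In Q140 a further step closed, as Prkci at 14.2 FPKM and Prkch at 12.1 FPKM overlapped.

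**Figure D1:**
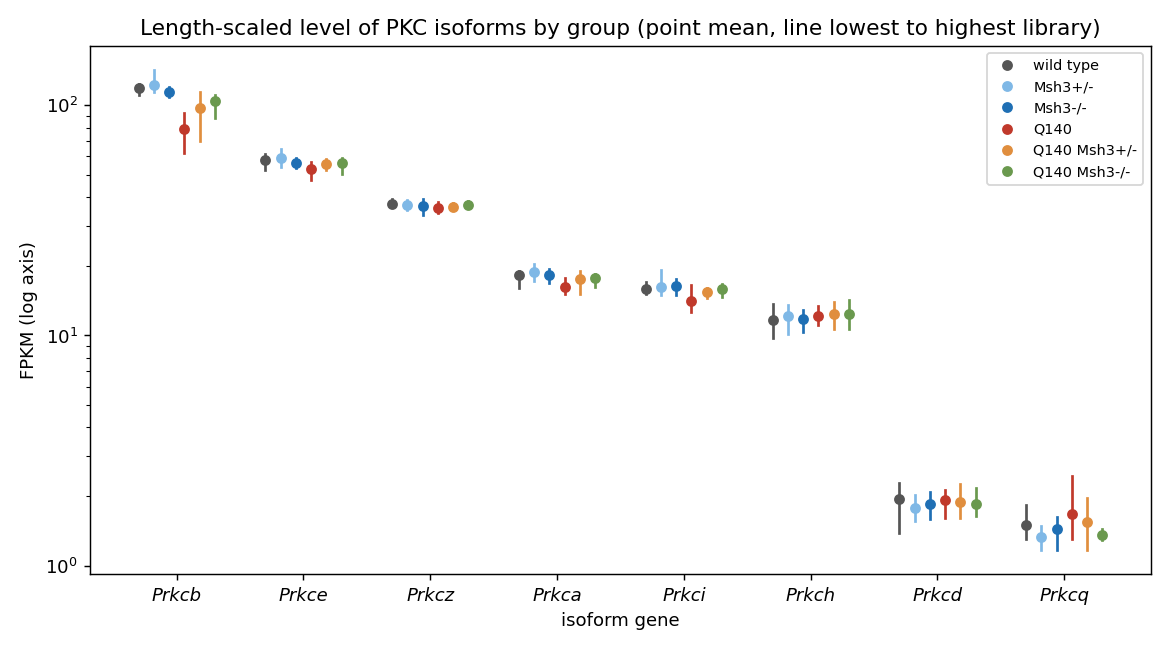
Level of each isoform gene in FPKM on a log axis, by genotype group (points are means, vertical lines run from the lowest to the highest library, n = 7 to 9). Prkcb lies highest in every group, from 118.8 in wild type down to 79.3 in Q140, and Prkcd and Prkcq lie lowest, at 1.94 and 1.5 in wild type.

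The summed level of the 8 genes was 263.5 ± 5.7 FPKM in wild type and 214.1 ± 16.6 in Q140, with library ranges of 255.4 to 269.8 and 189.8 to 234.0 that did not overlap. It was 238.3 ± 15.4 FPKM in Q140 Msh3+/- and 247.3 ± 9.86 in Q140 Msh3-/-. These sums rest on library totals without TMM factors. With such totals the median change of all genes in Q140 against wild type was 0.10, and with TMM 0.01. Prkcb made up 45.07% ± 1.3 of the sum in wild type and 36.86% ± 2.61 in Q140, then 40.84% ± 3.08 and 42.39% ± 1.63 in Q140 Msh3+/- and Q140 Msh3-/-. Every other isoform had a larger mean share in Q140, as a smaller share of Prkcb leaves more for the rest. Prkce went from 22.05% to 24.65% and Prkcz from 14.17% to 16.84%, although the level of each was lower in Q140. The composition of the family thus shifted away from its main conventional member in the libraries labelled Q140, and these shares are a description with no test.

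Prkcb encodes PKC-beta, a conventional isoform with strong expression in brain. Its level in wild type ran from 854.9 through a median of 946.4 to 964.5 CPM, and in Q140 from 435.8 through 603.9 to 697.7. Every Q140 library lay below every wild-type library, and the lowest, male 1, stood at less than any other library of the series. With the knock-in and an Msh3 mutant label the level was higher, from 526.4 through 748.5 to 873.8 CPM in Q140 Msh3+/- and from 663.1 through 832.0 to 871.0 in Q140 Msh3-/-. Without the knock-in, the ranges were 872.8 to 1137 CPM in Msh3+/- (median 936.8) and 849.4 to 943.8 in Msh3-/- (median 891.2). These last 2 groups overlapped wild type.

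Fitted over all libraries, Prkcb fell in Q140 against wild type by 0.66 on the log2 scale (SE 0.079, adjusted p = 2.434e-08), to 0.633 of the wild-type level (95% interval 0.567 to 0.707). It was 0.46 higher in Q140 Msh3-/- than in Q140 (SE 0.077, adjusted p = 3.894e-05), a rise to 1.379 times, and the interaction of Q140 with Msh3-/- was 0.52 (SE 0.11, adjusted p = 0.005878). That interaction measures how much less Prkcb differed by Q140 in the Msh3-/- background. It held no call with plate row added as a covariate, where it was 0.51 with an adjusted p of 0.06954. Prkcb rose in Q140 Msh3+/- by 0.33 over Q140 (SE 0.077, adjusted p = 0.01669). This call was lost without Q140 female 1 (0.29, adjusted p = 0.06306), Q140 male 1 (0.28, 0.06406), Q140 Msh3+/- female 1 (0.30, 0.0526) or Q140 Msh3+/- male 4 (0.31, 0.05084). It was also lost with plate column as a covariate (0.31, adjusted p = 0.06284). With only the groups compared the change was 0.33 (adjusted p = 0.2085), and 4 of all genes were called.

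In the Msh3+/- background the difference was smaller. Prkcb was 0.38 lower in Q140 Msh3+/- than in Msh3+/- (adjusted p = 0.0009186) and 0.33 lower than in wild type (adjusted p = 0.009874). In Q140 Msh3-/- the differences were smaller and not called, at -0.14 against Msh3-/- (95% interval -0.30 to 0.01, adjusted p = 0.7762) and -0.20 against wild type (-0.36 to -0.04, adjusted p = 0.4822). Q140 Msh3-/- was 0.13 above Q140 Msh3+/- (-0.02 to 0.29, adjusted p = 0.8927), so the 2 Msh3 genotypes with Q140 did not differ beyond their spread. The interaction with Msh3+/- was 0.28 and was not called (adjusted p = 0.5138). Male libraries had means of 602.1 CPM in Q140 and 924.0 in wild type, and over all groups the fitted difference of females from males was 0.04 (adjusted p = 0.7214).

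**Figure D2:**
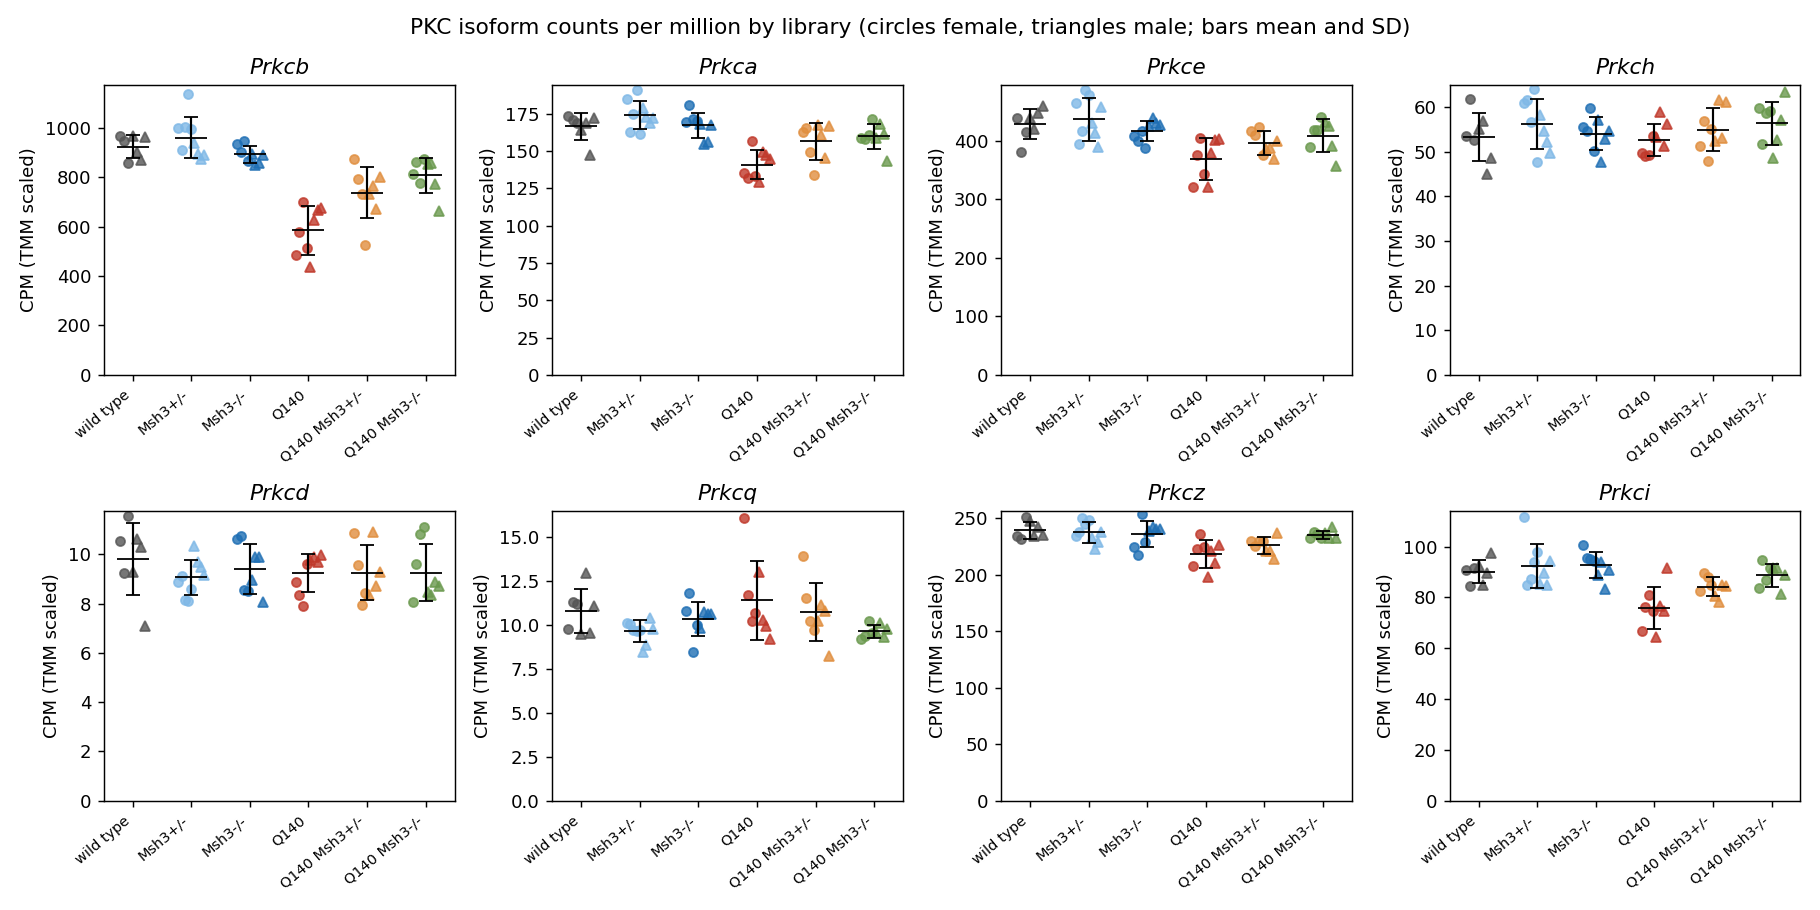
Level of each isoform in CPM in the 48 libraries, by genotype group, with each axis starting at 0 (circles female, triangles male, bars mean and SD). Prkcb in Q140 lies between 435.8 and 697.7 CPM, below all wild-type libraries, while Prkcd and Prkch show no such step.

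Prkca encodes PKC-alpha, the other conventional isoform described here and the more widely expressed one. In wild type it ran from 147.6 through 168.9 to 173.1 CPM and in Q140 from 129.2 through 139.9 to 156.5. These ranges met only because of wild-type male 3 at 147.6 CPM, the next library above it being at 163.9. In Q140 Msh3+/- the values were 134.2 to 167.1 CPM (median 161.9) and in Q140 Msh3-/- 143.1 to 171.5 (median 159.7). Mean levels without the knock-in were 174.1 CPM in Msh3+/- and 167.2 in Msh3-/-, close to the 166.5 of wild type. Prkca fell in Q140 by 0.24 on the log2 scale (SE 0.045, adjusted p = 7.29e-05) and was 0.18 higher in Q140 Msh3-/- than in Q140 (SE 0.044, adjusted p = 0.003111).

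With Msh3+/-, Prkca was 0.15 above Q140 and just missed the threshold (SE 0.044, 95% interval 0.06 to 0.24, adjusted p = 0.05375); it passed under 3 of the other settings and without any of 24 libraries. It fell by 0.15 in Q140 Msh3+/- against Msh3+/- (adjusted p = 0.01867), a call lost without Q140 Msh3+/- female 4 (-0.12, 0.06511), Q140 Msh3+/- male 3 (-0.14, 0.0506) or Msh3+/- female 4 (-0.13, 0.05718), and with unscaled library totals. The interaction with Msh3-/- was 0.18 and was not called (adjusted p = 0.1233). Prkca therefore had the direction of Prkcb in these comparisons with smaller changes; the difference between the 2 genes was not tested.

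Prkce encodes PKC-epsilon, the most abundant calcium-independent isoform in these libraries. Its level ran from 381.0 through 438.0 to 460.0 CPM in wild type and from 321.6 through 377.5 to 403.8 in Q140, so the ranges overlapped. It ran in Q140 Msh3+/- from 369.0 through 393.8 to 424.2 CPM and in Q140 Msh3-/- from 357.4 through 418.4 to 440.2. Means in Msh3+/- and Msh3-/- were 436.4 and 416.3 CPM, beside 428.4 in wild type. Prkce fell in Q140 by 0.22 (SE 0.052, adjusted p = 0.001693). It rose in Q140 Msh3-/- over Q140 by 0.15 (SE 0.05, adjusted p = 0.0409), but this call was marginal: it was lost when any of 9 libraries was left out, the lowest change being 0.12 without Q140 female 1 (adjusted p = 0.1245), and under 8 of the other settings. Against Msh3+/- the change with Q140 was -0.14 and was not called (adjusted p = 0.07332).

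Prkcd encodes PKC-delta, a calcium-independent isoform with roles in apoptosis and immune cells. Its level ran from 7.07 to 11.6 CPM in wild type (median 10.3) and from 7.91 to 9.96 in Q140 (median 9.64). Every group mean lay between 9.07 and 9.81 CPM. No comparison between groups called Prkcd. The change in Q140 against wild type was -0.08 (95% interval -0.25 to 0.08, adjusted p = 0.5166), which leaves room for a change of up to 0.25 downward, about as large as that of Prkca.

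Prkch encodes PKC-eta, a calcium-independent isoform known mainly from epithelial tissues. It ran from 45.0 to 61.8 CPM in wild type (median 53.4), from 49.0 to 58.8 in Q140 (median 52.3) and from 48.7 to 63.3 in Q140 Msh3-/- (median 57.8). The group means spanned 52.6 to 56.3 CPM. The change in Q140 was -0.02 (95% interval -0.15 to 0.11, adjusted p = 0.8687), an interval that excludes the fitted fall of Prkcb but not a change of 0.14 such as that of Prkcz. Prkch was not called in any of the 13 comparisons.

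Prkcq encodes PKC-theta, best known from T cells, and had the lowest level per unit of gene length. In wild type it ran from 9.49 through 11.1 to 12.95 CPM, in Q140 from 9.2 through 10.5 to 16.1, and in Q140 Msh3-/- from 9.21 through 9.57 to 10.2. The spread in Q140 was wide, with an SD of 2.24 CPM against 0.376 in Q140 Msh3-/-, and rested on female 1 at 16.1 CPM. Mean levels were 9.65 CPM in Msh3+/-, 10.4 in Msh3-/- and 10.7 in Q140 Msh3+/-. The mean of Q140 Msh3-/-, 9.64 CPM, was thus near that of Msh3+/-. Prkcq was called only as lower in Q140 Msh3-/- than in Q140, by 0.24 (SE 0.082, adjusted p = 0.04541). Without Q140 female 1 the change was -0.16 and the call was lost (adjusted p = 0.2078); it was also lost without 17 other libraries, each left out in turn, with adjusted p-values from 0.05008 to 0.135, and under 6 of the other settings. Against wild type, Q140 was 0.07 higher and was not called (95% interval -0.09 to 0.24, adjusted p = 0.5836).

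Prkci encodes the atypical isoform PKC-iota, a polarity kinase. It ran from 84.4 through 90.9 to 97.4 CPM in wild type and from 64.5 through 75.5 to 91.5 in Q140. Q140 male 4 at 91.5 CPM was the only library of that group inside the wild-type range. It ran in Q140 Msh3+/- from 78.1 through 84.8 to 89.7 CPM, and in Q140 Msh3-/- from 81.2 through 90.1 to 94.9. Means without the knock-in were 92.3 CPM in Msh3+/- and 92.9 in Msh3-/-, above the 90.2 of wild type by less than 1 SD. Prkci fell in Q140 by 0.25 (SE 0.052, adjusted p = 0.0002425) and rose in Q140 Msh3-/- over Q140 by 0.23 (SE 0.05, adjusted p = 0.001305).

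In Q140 Msh3+/- the difference of Prkci from Q140 was 0.15 and was not called (95% interval 0.05 to 0.25, adjusted p = 0.09701). Without Q140 male 4 it was 0.20 and passed (adjusted p = 0.006245), as did the interaction with Msh3-/- at 0.24 (adjusted p = 0.02106, against 0.19 and 0.1606 with all libraries). The level in Q140 Msh3-/- differed from wild type by -0.03 (95% interval -0.13 to 0.08).

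Prkcz encodes PKC-zeta, the other atypical isoform, and gave the smallest of the called falls. It ran from 231.4 through 235.0 to 251.3 CPM in wild type, from 197.7 through 221.7 to 235.6 in Q140, and from 232.1 through 234.3 to 242.4 in Q140 Msh3-/-. Its range in Q140 Msh3+/- was from 213.6 through 227.6 to 236.9 CPM. Means in Msh3+/- and Msh3-/- were 237.5 and 235.9 CPM, beside 239.4 in wild type. Prkcz fell in Q140 by 0.14 (SE 0.032, adjusted p = 0.001296) and rose in Q140 Msh3-/- over Q140 by 0.11 (SE 0.031, adjusted p = 0.01245). Both calls depended on the scaling: with library totals in place of TMM factors the changes were -0.06 (adjusted p = 0.1209) and 0.05 (adjusted p = 0.2254), and the FPKM values gave adjusted p-values of 0.08931 and 0.173. The rise was also lost with TMM factors but no count filter (adjusted p = 0.05241) and with only the groups compared (adjusted p = 0.05738).

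Counts of Prkcz are also uncertain for another reason. Prkcz2, a processed pseudogene at chr7:27882755-27884510 on the minus strand, is 98.69% identical to the Prkcz transcript over 1754 aligned bases, so reads could be split between them. It took a mean of 15.49% to 15.85% of the summed counts of the pair in the 6 groups. Prkcz2 fell by 0.14 in Q140 (adjusted p = 0.008601) and rose by 0.13 in Q140 Msh3-/- over Q140 (adjusted p = 0.02174), close to the values of its parent gene.

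Counted over the family, 5 of 8 isoforms fell in Q140 against wild type and none rose, where 19.9% of all tested genes were called in either direction. The median change of the 8 was -0.18, beside 0.01 over all genes. In Q140 Msh3-/- against Q140 the same 5, Prkca, Prkcb, Prkce, Prkci and Prkcz, rose and Prkcq fell, where 11.9% of genes were called. The 2 comparisons share the Q140 libraries, so the opposite signs are not separate evidence. Only for Prkcb in Q140 against wild type did the library ranges of the groups compared not overlap. The share of all tested genes with separate ranges was not counted, so how unusual this is cannot be said. The scaling matters to this count: with TMM, 1926 of 3969 called genes were higher in Q140, and with library totals 5076 of 6180, where the median change of all genes moved from 0.01 to 0.10 and 4 isoforms were still called as lower.

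In Q140 Msh3+/- against Q140, Prkcb alone rose, where 1.98% of genes were called. In Q140 Msh3+/- against Msh3+/-, Prkcb and Prkca fell, where 6.45% were called, and against wild type Prkcb alone fell, where 3.77% were called. The interaction of Q140 with Msh3-/- called Prkcb, where 2.39% of genes were called, and 4 more isoforms, Prkca, Prkce, Prkci and Prkcz, had an unadjusted p under 0.05 with positive values from 0.13 to 0.19, a level that 3053 of the 19975 genes reached. Thus Prkcb was the isoform called in every comparison in which any isoform was called.

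No isoform was called in the other 7 comparisons by edgeR, and DESeq2 called none there either. In Msh3+/- against wild type, 0.01% of genes were called and 1 isoform, Prkcq at -0.17, had an unadjusted p under 0.05. In Msh3-/- against wild type 0.03% of genes were called and 0 isoforms reached that level, and in Q140 Msh3-/- against Msh3-/- 0.0751% and 0. Q140 Msh3-/- against Q140 Msh3+/- called 0.015% of genes, with 0 isoforms at an unadjusted p under 0.05. Q140 Msh3-/- against wild type called 0.2%, with Prkcb alone at that level. The interaction of Q140 with Msh3+/- called 0.0% of genes by edgeR (1621 at an unadjusted p under 0.05) and 19 genes by DESeq2, with Prkcb at the unadjusted level. Female against male called 2.93% of genes and no isoform, also none at an unadjusted p under 0.05, with changes from -0.0025 to 0.068. In 6 of these 7 comparisons at most 0.2% of all genes were called, so a count of 0 isoforms is near the background.

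**Figure D3:**
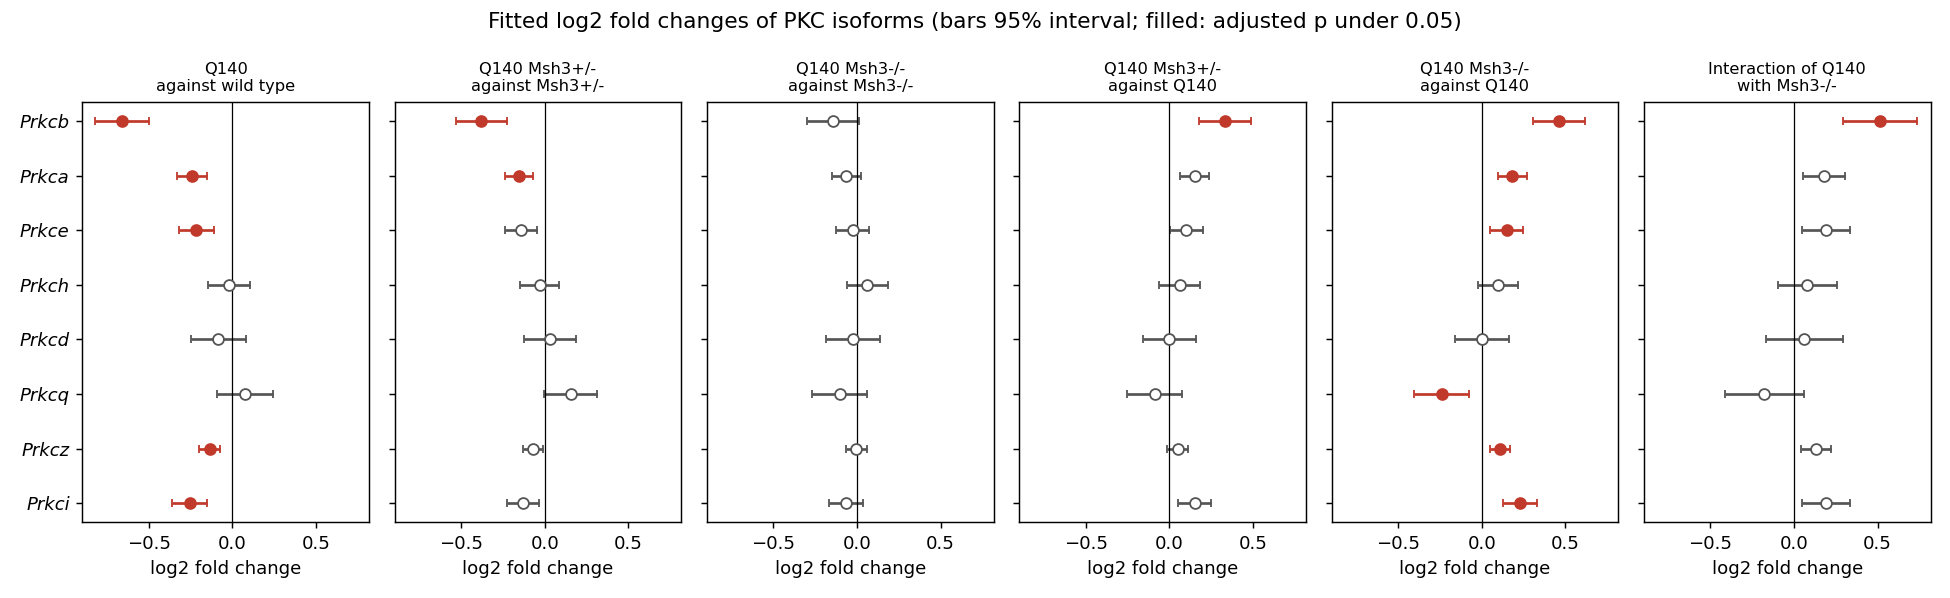
Fitted log2 fold change of each isoform in 6 comparisons, with 95% intervals; filled points have an adjusted p under 0.05. Prkcb lies furthest from 0 in each panel, from -0.66 to 0.52; no isoform is called in Q140 Msh3-/- against Msh3-/-, and Prkcq is called with the opposite sign to the others in Q140 Msh3-/- against Q140.

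Medium spiny neuron markers moved with these isoforms. All 10 markers shared by medium spiny neurons fell in Q140 (median -0.53) and all 10 rose in Q140 Msh3-/- against Q140 (median 0.39). Their summed level ran from 14140 to 15910 CPM in wild type, from 8255 to 12310 in Q140, from 11150 to 13440 in Q140 Msh3+/- and from 12110 to 14300 in Q140 Msh3-/-. In bulk tissue, fewer cells of a type and less RNA per cell cannot be told apart. As a share of that summed marker level, Prkcb was 6.16% ± 0.407 in wild type and 5.91% ± 0.59 in Q140, with 6.15% ± 0.833 in Q140 Msh3+/- and 6.03% ± 0.444 in Q140 Msh3-/-. Prkcb therefore fell in near proportion to the summed level, to which the most abundant markers add most. Gene by gene, its log2 change in Q140 was -0.66, beside the marker median of -0.53.

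The other called isoforms fell by less than the markers did. Against the same sum, Prkce was 2.85% ± 0.171 in wild type and 3.75% ± 0.311 in Q140, Prkca 1.11% ± 0.0687 and 1.44% ± 0.145, Prkci 0.601% ± 0.0201 and 0.769% ± 0.0413, and Prkcz 1.6% ± 0.0696 and 2.23% ± 0.22. Over the 48 libraries, which share the group differences, the log2 level of Prkcb followed the mean marker level with a Pearson r of 0.90 (0.60 after removing group means), Prkci with 0.85 (0.69), Prkca with 0.80 (0.44), Prkce with 0.78 (0.64) and Prkcz with 0.78 (0.62). Prkcd and Prkch showed values of -0.02 and 0.13, and Prkcq of -0.48 (-0.52). The part of the markers in the isoform changes was not tested.

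**Figure D4:**
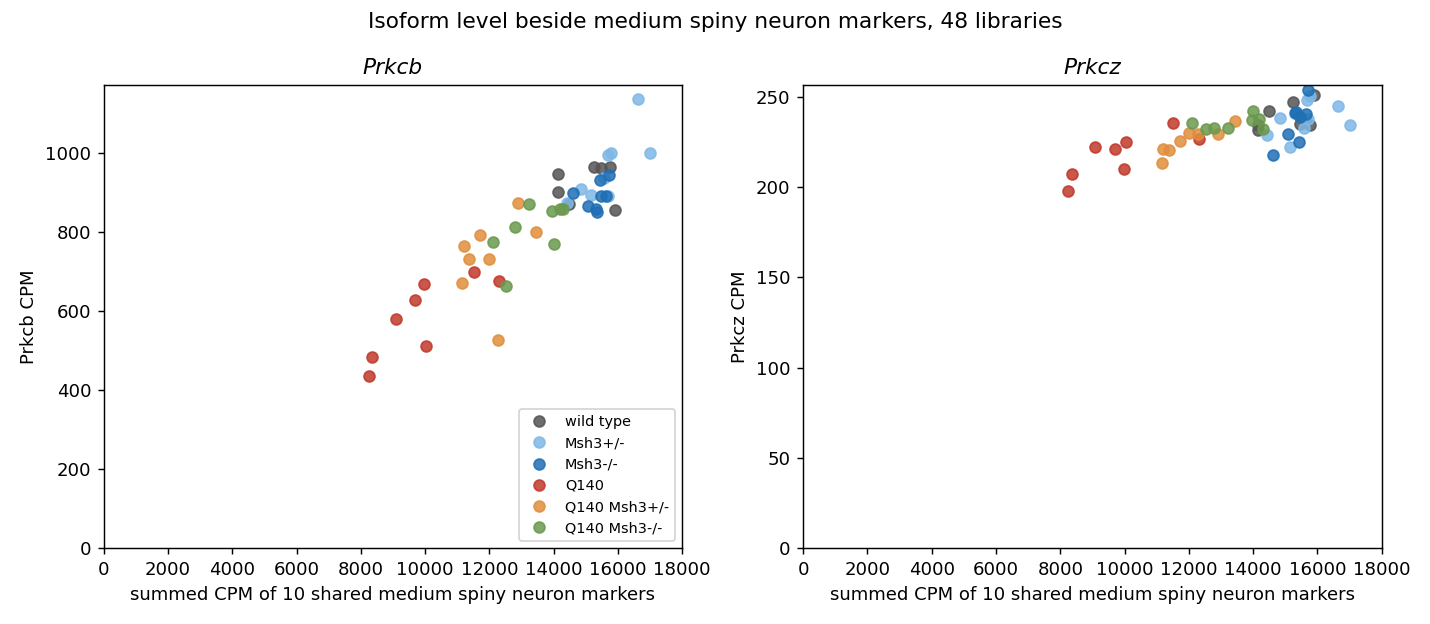
Level of Prkcb (left) and Prkcz (right) in CPM against the summed CPM of 10 shared medium spiny neuron markers, each point a library, coloured by genotype group, both axes starting at 0. Q140 libraries lie at 8255 to 12310 CPM of markers; Prkcb drops toward them in near proportion, and Prkcz spans 197.7 to 235.6 CPM there.

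Other marker lists had fewer calls. In Q140 against wild type, 5 of 7 markers of D2-type medium spiny neurons fell, as did 2 of 8 of D1-type (3 of 8 rose), 5 of 8 endothelial and mural markers, 3 of 8 astrocyte markers, 2 of 8 microglial markers, 2 of 8 interneuron markers and 1 of 8 oligodendrocyte markers. Beside the 19.9% of all genes called, counts of 1 or 2 of 8 are near the background. Cortical neuron markers gave 1 rise of 8, and 4 of the 8 had a median under 1 CPM. Choroid plexus markers, 3 of 8 of which had a median under 1 CPM, reached 4228 CPM in sum in Q140 Msh3+/- female 1. Without that library and the 2 others with the highest choroid or cortical marker sums, wild-type male 2 and Msh3+/- female 5, 5 isoforms still fell in Q140. The call of Prkcb in Q140 Msh3+/- against Q140 was then lost (0.30, adjusted p = 0.05861). The part of these other cell types was not tested.

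Counts of the pathway lists below are to be read against the 19.9% of all tested genes called in Q140 against wild type. Genes named from each list were picked by smallest p in that comparison. Since Q140 Msh3-/- against Q140 uses the same Q140 libraries, opposite signs there are not separate evidence for any list. Upstream of the kinases, among 18 Gq subunits and Gq-coupled receptors, 4 fell and 2 rose in Q140 against wild type (median -0.05). Grm5, the main postsynaptic group I metabotropic glutamate receptor of striatum, fell from 553.5 ± 37.1 CPM to 415.0 ± 39.5, by 0.41 (adjusted p = 8.109e-08). Chrm1, a muscarinic receptor, fell by 0.19 (adjusted p = 0.001167). Htr2c, a serotonin receptor, rose from 65.8 ± 11.02 to 101.2 ± 8.89 CPM, by 0.64 (adjusted p = 1.545e-08). In Q140 Msh3-/- against Q140, Grm5 and Chrm1 rose by 0.31 and 0.17, and Htr2c fell by 0.40, all called.

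Of 12 phospholipase C genes, 4 fell in Q140 and none rose. Plcb1, a Gq-activated form prominent in the forebrain, fell from 548.1 ± 36.5 to 403.2 ± 48.6 CPM, by 0.45 (adjusted p = 1.283e-07), and was 0.29 higher in Q140 Msh3-/- than in Q140 (adjusted p = 0.0004179). Plce1, Plcb3 and Plcb2 fell by 0.28, 0.20 and 0.27, and of these Plce1 alone was called as higher in Q140 Msh3-/- than in Q140 (0.26, adjusted p = 0.02884). Enzymes that remove or convert diacylglycerol were mixed: of 12 kinases and lipases, 3 fell and 3 rose. Dgkb, a diacylglycerol kinase enriched in striatum, fell from 640.3 ± 55.7 to 471.1 ± 61.5 CPM (-0.45, adjusted p = 5.769e-07), and Dagla, which makes the endocannabinoid 2-arachidonoylglycerol from diacylglycerol, fell by 0.25 (adjusted p = 0.002615). Dgke and Dgkq rose by 0.17 and 0.15.

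Other proteins bind diacylglycerol through a C1 domain as these isoforms do, and of 12 such genes 6 fell and 1 rose in Q140 (median -0.22). Chn1, a Rac-inhibiting chimaerin, fell by 0.43 (adjusted p = 1.077e-09), and the Ras activators Rasgrp2 and Rasgrp1 by 0.38 and 0.25 (adjusted p = 1.365e-06 and 0.0003022). Unc13b, which primes synaptic vesicles, rose by 0.32 (adjusted p = 1.297e-05). In Q140 Msh3-/- against Q140, which shares the Q140 libraries, Chn1, Rasgrp2 and Rasgrp1 rose by 0.32, 0.28 and 0.22, and Unc13b fell by 0.30.

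Among 15 genes for priming, dephosphorylation and anchoring of the kinases, 5 fell and 3 rose. Pard3, the polarity scaffold that binds atypical isoforms, fell by 0.36 (adjusted p = 1.747e-08), Pdpk1, the kinase that primes the activation loop, by 0.23 (adjusted p = 0.0005094), and Wwc1, a binding partner of PKC-zeta, by 0.25 (adjusted p = 0.0009912). Sqstm1, which encodes p62, rose by 0.11 (adjusted p = 0.009978). Of 10 substrates, 2 rose and 3 fell: Marcks and Gap43 rose by 0.36 and 0.24, and Add1 and Add2 fell by 0.19 and 0.20. Marcks was -0.14 in Q140 Msh3-/- against Q140 and was not called there (adjusted p = 0.1405). Of 3 related kinases of the Pkn group, Pkn2 fell by 0.18 (adjusted p = 0.0009101). In Q140 Msh3-/- against wild type, none of the genes in these lists was called. Only 0.2% of all tested genes were called in that comparison, so this is near the background.

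The genes whose level most resembled each isoform over the 48 libraries differed between isoforms. Among 13346 genes, Prkcb was closest to Itpr1, the inositol trisphosphate receptor (Pearson r = 0.967, and 0.902 after removing group means), and Sytl5 was also among its 3 closest (0.943). Prkca was also closest to Itpr1 (0.888), with Dlgap2 among its 3 closest (0.882). Prkce was closest to Frrs1l (0.945), Pja2 (0.913) and Ppm1a (0.908), Prkci to Atp2a2 (0.92), Homer1 (0.904) and D5Ertd579e (0.902), and Prkcz to Slc8a2 (0.909), Cd4 (0.892) and Arf3 (0.86). For the 3 isoforms not called in Q140 against wild type, the closest genes were Ppfibp2 (0.798), Plekhg3 (0.796) and Cd82 (0.771) for Prkcq, St6galnac5 (0.766), Man1a (0.718) and Tmem164 (0.61) for Prkch, and Tns3 (0.665), Ncf1 (0.638) and Frmpd1 (0.633) for Prkcd. After removing group means the closest gene stood at 0.734 for Prkca, 0.774 for Prkcq and 0.76 for Prkch, so the order of these values depends on the group differences. These values describe libraries that share group differences and scaling.

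Among themselves, Prkcb and Prkca were the most alike pair (r = 0.9, and 0.755 after removing group means), followed by Prkcb with Prkce (0.828 and 0.704) and Prkcb with Prkci (0.773 and 0.469). Prkcq ran against Prkcz (-0.502 and -0.436). Prkcd was close to no other isoform, with values from -0.134 to 0.172. Among the 5 isoforms that fell in Q140, values within groups ran from 0.058 for Prkca with Prkcz to 0.755 for Prkca with Prkcb.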

How the data were processed

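RNA of striatum was sequenced from stranded TruSeq libraries, per the labels' protocols, and the authors deposited 1 table of counts per gene with FPKM values beside them (48795 genes, 48 libraries). The submitters' processing notes name STAR 2.7.5c, SAMtools 1.10, HTSeq 0.12.3 and GRCm38 (mm10); the annotation release and strand setting are not given in the sources used here. The deposited FPKM values equalled counts divided by a fixed length and the library total in the 12678 genes checked.

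Counts were fitted in edgeR 4.0.16 (R 4.3.3; TMM factors 0.956 to 1.09, filterByExpr with a minimum count of 10, quasi-likelihood, robust) over all 48 libraries with group and sex as terms. The 13 comparisons were adjusted by Benjamini-Hochberg over 19975 genes, at a threshold of 0.05. The 28820 genes left out held 0.0383% of counts. Alternatives were 14 other settings, including DESeq2 1.42.0 and limma 3.58.1 on FPKM, and 48 fits leaving out a library.

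The isoforms, 7 pathway lists and 12 marker lists were chosen with earlier results of these data known. Named genes were all 8 isoforms in every comparison. From each pathway list they were up to 4 genes called in Q140 against wild type, by smallest p. For likeness they were the 3 genes most correlated with each isoform, among tested genes of at least 0 log2 CPM, clone names left out. D2-type marker Gpr52 had no row. Some genes that these rules name are not reported here. Promoter sequences are RefSeq's.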

Additional observations from a re-analysis of the deposited data

Results flagged for a closer look

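In 48 checks of an isoform within a group, 3 libraries stood apart from the rest of their group, where chance alone would give about 1 in 20. Prkca in wild-type male 3 was 147.6 CPM, with the nearest library at 163.9; without it the ranges of wild type and Q140 would not have met. Prkcb in Msh3+/- female 4 was 1137 CPM, with the nearest at 1001. Prkci in Msh3+/- female 1 was 111.8 CPM, with the nearest at 98.1.

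The change of Prkcb with Q140 differed between the Msh3-/- background and the background with no Msh3 mutant label, by 0.5173 on the log2 scale (edgeR's interaction term, adjusted p = 0.005878).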

How the results depend on the processing

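The 5 isoforms called as lower in Q140 against wild type numbered 5 in each of 48 fits leaving out a library and 4 or 5 under the 14 other settings, and no called value changed sign under any setting. The larger moves in the counts were these, and smaller moves are not all listed. For Q140 Msh3+/- against Q140 (1 isoform), RLE scaling, DESeq2 and a stricter count filter gave 2, and plate column as a covariate, only the groups compared, and leaving out wild-type male 2, Msh3+/- female 5 and Q140 Msh3+/- female 1 gave 0; leaving out a library gave 0 to 3. For Q140 Msh3+/- against Msh3+/- (2 isoforms), library totals, log2(FPKM + 0.1), log2(FPKM + 1) and only the groups compared gave 1, and leaving out a library gave 1 to 3. For Q140 Msh3-/- against Q140 (6 isoforms), no count filter and only the groups compared gave 3. Library totals gave 4 there, and leaving out a library gave 4 to 6. Calls of Prkce and Prkcq were also lost with plate row or the animal stem as a term, and of Prkce and Prkcz on both FPKM scales. Plate column lost Prkce alone, and RLE scaling or a replicate block lost Prkcq alone. For the interaction with Msh3-/- (1 isoform), DESeq2 gave 2 and plate row as a covariate 0, and leaving out a library gave 1 to 2. The cause was not tested. Female against male gave a value under 11 of the 14 settings, since the others leave no sex term or only pairs of groups.

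Labels share replicate numbers, which do not pair the libraries: over 115 same-numbered pairs the deviations from group means had a mean correlation of -0.00521, against 0.00176 over 364 other pairs, and 4 of 48 libraries were closest to their own number. With the number as a replicate block, the isoforms called were 5 in Q140 against wild type and 5 in Q140 Msh3-/- against Q140, where Prkcq was -0.23 (adjusted p = 0.05078); no other isoform call changed. Genes called in all over the table moved from 3969 to 3749 and from 2374 to 2371. Library totals raised the all-gene median in Q140 against wild type from 0.01 to 0.10, and the smallest isoform changes, those of Prkcz, were then not called. Prkcd and Prkcq, with the lowest counts, had the widest intervals in Q140 against wild type (SE 0.082 and 0.084). Prkcb, with the highest counts, was close to them (SE 0.079), so the width does not follow the counts alone.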
